A study of Mus musculus with 8 samples.

Results

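miR-423 is a microRNA hairpin whose 2 mature strands, miR-423-5p and miR-423-3p, were both counted in small RNA libraries of mouse bone marrow LSK cells. Both strands, mmu-miR-423-5p and mmu-miR-423-3p, were found by name in the deposited count table, where they made up 2 of 190 listed mature microRNAs. They were selected on the contrast of db/db with db/m libraries, already known, in which the 5p strand was lower and the 3p strand was not, so every difference between the genotypes in these strands, their sum or their ratio is given as a description. Their p-values are not printed, and where a count of calls over the whole table includes them, nothing is read from it. LSK cells are bone marrow cells sorted by flow cytometry as negative for lineage markers and positive for Sca1 and cKit, the fraction that contains the blood stem cells. The db/m mice are labelled heterozygous for the leptin receptor (B6.BKS(D)-Leprdb/+) and the db/db mice homozygous (B6.BKS(D)-Leprdb/J), and the db allele disables that receptor, so homozygotes become obese and diabetic. There were 4 libraries of each genotype, all labelled as 6 months after diabetes, and each genotype label was used in place of the sample titles, which read db/m for all 8. The receptor is altered in the whole animal, so nothing in the design sets an effect inside the sorted cells apart from one of the diabetic body. The sources used here do not say whether a library is 1 mouse or a pool, or whether libraries came from separate mice.

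A microRNA hairpin is cut to a short duplex, and an Argonaute protein keeps 1 strand of it as a guide that represses messenger RNAs matching the guide's seed, while the other strand is usually degraded. Both strands leave 1 precursor in equal number, so their ratio in a library depends on how much of each strand is kept or recovered and not on how much precursor was made. In humans, miR-423-5p is known as a plasma marker of heart failure, and in mouse liver it is known to be induced by the blood transcription factor Nfe2 and to repress Fam3a in diabetes. miR-423-3p has been linked in human cancer cell lines to faster growth through repression of the cell cycle inhibitor CDKN1A.

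The mature sequences are shown because both strands come from 1 hairpin and yet have different seeds, so they address different messenger RNAs. They are from RefSeq on GRCm38.p6, 5′ to 3′, with the seed (bases 2 to 8) in capitals.
miR-423-5p: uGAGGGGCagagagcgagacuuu
miR-423-3p: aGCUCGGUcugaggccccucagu
miR-423-5p lies at chr11:77078122-77078144 and miR-423-3p at chr11:77078086-77078108, both on the minus strand. The whole hairpin of 109 bases, chr11:77078064-77078172, is shown with the mature strands in capitals.
miR-423 hairpin: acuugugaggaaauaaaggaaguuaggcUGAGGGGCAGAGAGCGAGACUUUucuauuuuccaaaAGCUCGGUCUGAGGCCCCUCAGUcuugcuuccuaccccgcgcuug

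The hairpin lies inside Nsrp1, a gene for a splicing regulator of nuclear speckles, on the same strand, and starts 263 bases from the annotated start of that gene. No annotated Nsrp1 exon overlaps it, and in 2 of the 3 annotated Nsrp1 transcripts it falls in the first intron. Both mature strands are 23 bases long, the 5p strand with 56.5% GC and the 3p strand with 65.2% GC. The 5p strand holds 10 G and 3 C, and the 3p strand 7 G and 8 C. In the minimum free energy fold of the hairpin (-51.9 kcal/mol by RNAfold), 17 bases of the 5p strand pair with the 3p strand. The first 4 bases of each strand are all paired, with 2 G-C and 2 A-U pairs at either 5′ end. The ends did not differ by this count, which does not register unpaired bases on the partner strand. The 5p strand begins with U and the 3p strand with A. Among 1679 mature names in the RefSeq table, 1 other shares the seed of the 5p strand, miR-6921-5p, and none shares that of the 3p strand. miR-6921-5p is not among the listed microRNAs.

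Library totals over the 190 listed microRNAs ran from 13273 counts in db/m replicate 2 to 77834 in db/m replicate 3. Thus 3 counts were worth between 40.3 and 229 CPM. These are counts on the CPM scale, over a library size scaled by TMM, the trimmed mean of M values. At that depth both strands were above 3 counts in every library, the fewest being 20 counts of the 3p strand in db/m replicate 2. The LSK label was set against marker microRNAs. All 8 stem and progenitor markers (miR-125a-5p, miR-125b-5p, miR-99b-5p, miR-126a-3p, miR-196b-5p, miR-10a-5p, miR-130a-3p and miR-29a-3p) were listed, with a summed level of 75472 to 111573 CPM in db/m, against 109873 to 139161 CPM in db/db. Of the 5 erythroid markers 1 was listed, miR-486a-5p, at 2252 to 3388 CPM in db/m, against 1108 to 5754 CPM in db/db, while miR-451a, both strands of miR-144 and miR-486b-5p are not among the listed microRNAs. Of the 7 stromal and endothelial markers 2 were listed, miR-143-3p and miR-199a-3p, with a sum of 76.4 to 498 CPM in db/m, against 175 to 1236 CPM in db/db. The 3 myeloid markers (miR-223-3p and both strands of miR-142a) summed to 20478 to 30226 CPM in db/m, against 21049 to 28768 CPM in db/db. The lymphoid marker miR-150-5p was at 3523 to 8864 CPM in db/m, against 2980 to 4107 CPM in db/db.

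miR-423-5p was the higher strand in 8 of 8 libraries and was lower in every db/db library than in any db/m library. It was counted 237, 120, 514 and 527 times in db/m replicates 1 to 4 and 125, 182, 150 and 117 times in db/db replicates 1 to 4. On the CPM scale these counts are levels of 6279, 9169, 6911 and 10095 in db/m, against 2178, 3537, 4052 and 2583 in db/db. The groups did not overlap, and the lowest db/m level was 1.55 times the highest db/db level. The mean level was 8114 ± 1812 CPM in db/m, against 3088 ± 859 CPM in db/db (SD, n = 4 each). edgeR's fit across all tested microRNAs gave a log2 fold change of -1.39 (SE 0.25), 2.63-fold lower in db/db. In bulk libraries such as these, fewer cells that hold a microRNA and less of it per cell cannot be told apart.

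The share of miR-423-5p was taken over the counts of the 190 listed microRNAs. In db/m it lay between 0.585% (exact 95% binomial interval 0.513 to 0.664) in replicate 1 and 0.964% (0.884 to 1.05) in replicate 4. In db/db the share lay between 0.231% (0.192 to 0.275) in replicate 1 and 0.415% (0.351 to 0.487) in replicate 3. The highest db/db interval ended below the lowest db/m interval. These intervals cover counting error only. Among the 190 listed microRNAs miR-423-5p ranked between 22 and 32 by count in the db/m libraries and between 34 and 48 in the db/db libraries.

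miR-423-3p did not follow its partner. It was counted 54, 20, 122 and 96 times in db/m replicates 1 to 4 and 73, 101, 75 and 45 times in db/db replicates 1 to 4. Its levels were 1431, 1528, 1640 and 1839 CPM in db/m, against 1272, 1963, 2026 and 994 CPM in db/db. The db/m levels all fell inside the range of the db/db levels, which held both the lowest and the highest library. The mean was 1610 ± 175 CPM in db/m, against 1564 ± 511 CPM in db/db (SD, n = 4 each), and the fitted log2 fold change of -0.05 was smaller than its SE of 0.27. With library totals in place of TMM the value was 0.06, so no direction is given for this strand. Its rank by count was 56 to 64 in db/m, against 54 to 72 in db/db.

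**Figure D1:**
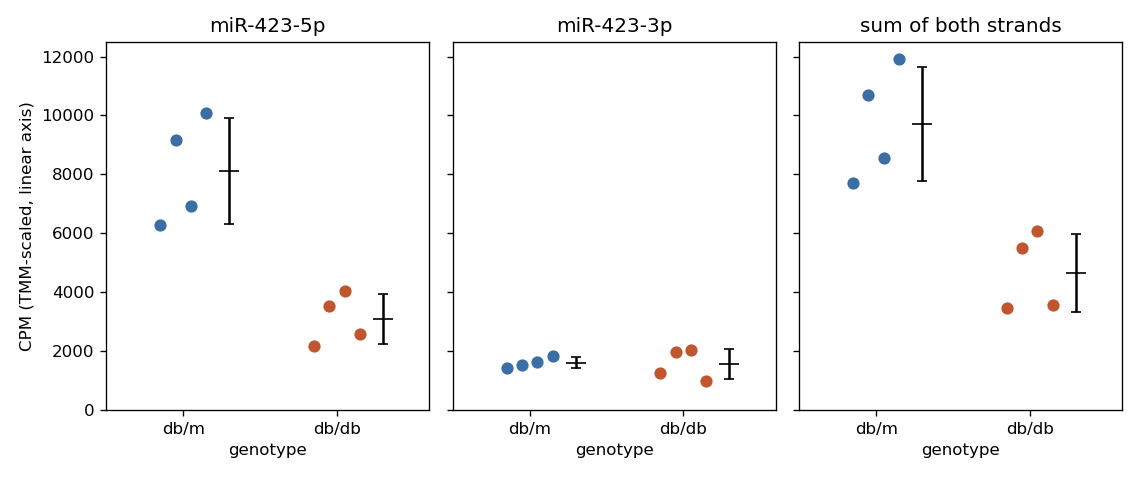
Levels of miR-423-5p, miR-423-3p and their sum in CPM (y axis, linear and starting at 0) for the 4 db/m and 4 db/db libraries (x axis); points are libraries, and the bar beside them is the mean with its SD. The 5p levels and the sums of the genotypes do not overlap, whereas the 3p levels of db/m (1431 to 1839 CPM) lie within those of db/db (994 to 2026 CPM).

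The sum of both strands, most of which was the 5p strand, was also lower in every db/db library. Sums were 291, 140, 636 and 623 counts in db/m replicates 1 to 4 and 198, 283, 225 and 162 counts in db/db replicates 1 to 4. In CPM they ran from 7710 to 11934 in db/m, against 3450 to 6079 in db/db, without overlap. The mean sum was 9723 ± 1938 CPM in db/m, against 4651 ± 1336 CPM in db/db (SD, n = 4 each). When the strands were entered as 1 microRNA, the log2 fold change of the sum was -1.11 (SE 0.25), 2.16-fold lower in db/db.

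The ratio of the strands separated the genotypes without any library scaling, since both counts come from 1 library. In db/m replicates 1 to 4 there were 4.39, 6.00, 4.21 and 5.49 counts of the 5p strand for each count of the 3p strand. In db/db replicates 1 to 4 there were 1.71, 1.80, 2.00 and 2.60. Every db/m ratio lay above every db/db ratio, the lowest of the former being 1.62 times the highest of the latter. The mean ratio was 5.02 ± 0.86 in db/m, against 2.03 ± 0.40 in db/db (SD, n = 4 each).

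Stated as a share, the 5p strand held 83.1% ± 2.38 of miR-423 counts in db/m, against 66.6% ± 4.04 in db/db (SD, n = 4 each). The lowest db/m share was 80.8% of 636 counts in replicate 3 (exact 95% binomial interval 77.5 to 83.8). The highest db/db share was 72.2% of 162 counts in replicate 4 (64.7 to 78.96), and these 2 intervals overlap. The interval of db/m replicate 2, the library with the fewest counts, ran from 78.8% to 91.1%. For the other 3 db/db libraries the intervals ended at 69.9%, 69.9% and 72.8%, below the start of all 4 db/m intervals, the lowest of which was 76.5%.

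**Figure D2:**
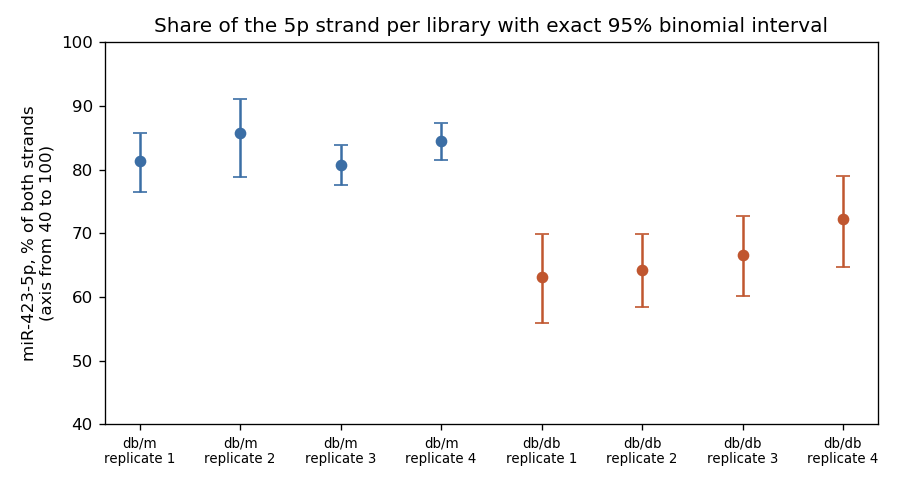
Share of the 5p strand among miR-423 counts (y axis, percent, drawn from 40 to 100) in each library (x axis), with exact 95% binomial intervals that cover counting error only. The db/m libraries lie between 80.8% and 85.7%, and the db/db libraries between 63.1% and 72.2%.

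On the log2 scale, with 0.5 added to each count, the ratio was 2.30 ± 0.24 in db/m, against 1.00 ± 0.27 in db/db (SD, n = 4 each), a difference of -1.30 (SE 0.28 by limma), which is a 2.47-fold lower ratio in db/db. The SD within a genotype was close to the counting error of a single library, which ran from 0.15 to 0.35 in db/m, against 0.18 to 0.25 in db/db. With counts pooled over the libraries of a genotype, 1398 counts of the 5p strand stood against 292 of the 3p strand in db/m (ratio 4.79), and 574 against 294 in db/db (ratio 1.95). The pooled 3p counts were nearly equal between the genotypes and the pooled 5p counts were not.

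The sample titles open with a number that several libraries of a genotype share and that never spans both genotypes, and whose meaning no source used here gives. The pooled ratio of the 3 db/m libraries with 1 number was 4.44, and that of the single db/m library with the other number was 5.49. In db/db the pair of libraries with each number had pooled ratios of 1.76 and 2.23. Both db/m numbers lay above both db/db numbers. That order was fixed beforehand, since a pooled ratio lies between those of its libraries and every db/m ratio exceeded every db/db ratio. It adds nothing to the ratios per library, and number and genotype cannot be told apart. RNA integrity numbers, between 9.5 and 10 in db/m and between 9.8 and 10 in db/db, overlapped between the genotypes.

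For the table as a whole, the quasi-likelihood test of edgeR, adjusted by Benjamini-Hochberg, placed 7 of 144 tested microRNAs (4.86%) past an adjusted p of 0.05, of which 3 (2.08%) were lower in db/db. Of the 2 miR-423 strands, 1 was among them, miR-423-5p. In 17.4% of the tested microRNAs the genotypes did not overlap in CPM, 9.03% with db/db lower, again with 1 of the 2 strands. Nothing is read from these counts for the strands, since the same contrast chose them.

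Other hairpins give the scale on which the strand ratio varied. Both strands were listed for 27 hairpins, and 25 of them had at least 40 counts of each strand over the 8 libraries. By its less abundant strand miR-423 was the fourth best counted of the 25. The 5p strand was the higher in both genotypes in 11 hairpins, miR-423 among them, the 3p strand in 9, and 5 were mixed. The difference of the log2 ratio (db/db minus db/m) had a median of 0.03, and its median size without sign was 0.36. At -1.30, miR-423 had the lowest value of the 25, as it had in all 14 alternative fits of the ratio. It was also the largest in size, which it was not in 6 of those 14, where miR-92b, miR-30e or miR-139 had a larger positive value. limma, adjusted by Benjamini-Hochberg, placed 1 of 25 hairpins (4%) past an adjusted p of 0.05, and this was miR-423 itself. That call was lost with the libraries of a title number summed, with the title suffix as a block, and in 6 of the 8 fits that left out 1 library. It was kept when the library left out was db/db replicate 4 or db/m replicate 3, and lost for each of the others. miR-423 was also the 1 hairpin (4%) whose genotypes did not overlap in the ratio. Since both readings come from the contrast that chose the strands, they are descriptions of miR-423 and not support for it. None of the other 24 hairpins passed, and at an unadjusted p under 0.05 there were 3 in all.

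The hairpins next to miR-423 in this order also had values below 0, with wider errors. Differences of the log2 ratio were -0.92 (SE 0.62) for miR-574, -0.74 (SE 0.51) for miR-425, -0.73 (SE 0.32) for miR-25 and -0.52 (SE 0.34) for miR-142a. At the other end they were 1.25 (SE 0.76) for miR-92b, 1.20 (SE 0.44) for miR-139, 1.03 (SE 0.61) for miR-30e, 0.93 (SE 0.45) for miR-361 and 0.59 (SE 0.37) for miR-532. None of these 9 passed adjusted p of 0.05 by limma (adjusted p from 0.258 to 0.456). Values thus lay on both sides of 0.

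**Figure D3:**
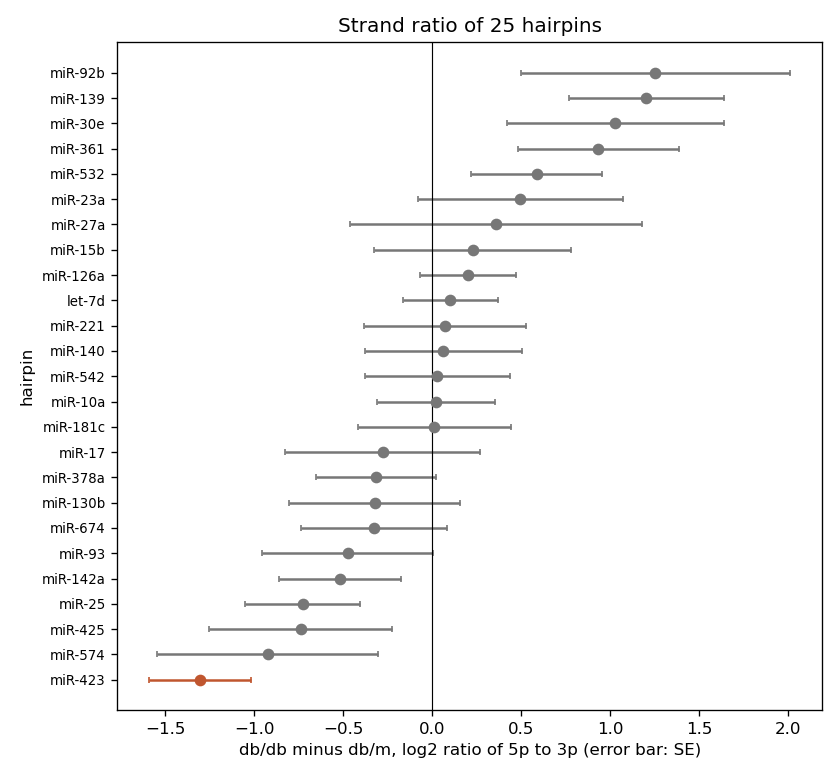
Difference of the log2 ratio of 5p to 3p between db/db and db/m (x axis) for 25 hairpins (y axis, ordered by value), with SE as error bars. miR-423, in colour, is at -1.30 and the others lie between -0.92 and 1.25.

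By the less abundant strand, miR-126a, miR-142a and let-7d were better counted than miR-423. The ratio of miR-142a differed by -0.52 (SE 0.34) between the genotypes. The other pair, miR-126a and let-7d, was picked after its values were seen and shows ratios that differed less. miR-126a, the stem cell and endothelial microRNA whose strands both rose in db/db, had a log2 ratio of -2.57 to -1.94 in db/m and -2.04 to -1.89 in db/db. Its ratio differed by 0.20 (SE 0.27). let-7d, of the let-7 family that accumulates with differentiation, had a log2 ratio of 2.31 to 2.47 in db/m, within the range of miR-423 there, and 2.18 to 2.72 in db/db. The 5p strand held 83.7% ± 0.71 of let-7d counts in db/m, against 84.5% ± 2.25 in db/db (SD, n = 4 each), where that of miR-423 went from 83.1% to 66.6%. The difference between these hairpins and miR-423 was not tested, as miR-423 was chosen for it.

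The microRNAs most like miR-423-5p over the 8 libraries, by Pearson correlation of log2 CPM with the other 143 tested microRNAs, were miR-1981-5p (r = 0.92), miR-1198-5p (0.90), miR-25-5p (0.89), miR-1306-5p (0.88) and miR-320-3p (0.87). These libraries share the genotype difference, so such a correlation mostly repeats it. All 5 had log2 fold changes below 0, at -1.17 (SE 0.33) for miR-1981-5p, -0.83 (SE 0.30) for miR-1198-5p, -0.96 (SE 0.26) for miR-25-5p, -1.03 (SE 0.39) for miR-1306-5p and -1.03 (SE 0.23) for miR-320-3p. Of these, miR-320-3p, made from its hairpin without Drosha, fell in db/db (edgeR adjusted p = 0.0198), while 5 single libraries were each needed for that call (adjusted p up to 0.081 without one of them). The other 4 did not pass (edgeR adjusted p from 0.0549 to 0.136). miR-25-5p, the minor strand of its hairpin, passed in 6 alternative settings and miR-1981-5p in 4.

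With the mean of each genotype subtracted, a different order appeared. miR-423-3p was then sixth of 143 in likeness to miR-423-5p (r = 0.76), where it had been 39th (r = 0.45) with the genotype difference left in. Within a genotype, libraries with more of 1 strand thus tended to have more of the other. Before it came miR-466i-5p (0.83), miR-484 (0.82), miR-1843a-3p (0.82), miR-744-5p (0.81) and miR-92b-5p (0.79). The nearest to miR-423-3p with the genotypes left in were miR-378a-5p (0.86), miR-744-5p (0.82), miR-17-3p (0.78), let-7b-5p (0.67) and miR-669a-3p (0.67). These are descriptions over 8 libraries that share the scaling of their library size.

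Base composition moved with the genotype difference across the table. A RefSeq sequence was matched for 163 of the 190 listed and 125 of the 144 tested microRNAs, whose median GC content was 47.6%. They were divided by rank into 4 parts. Ties in GC content were broken by the order of listing, so microRNAs at 40.9% fell in both the lowest part and the next. The medians of these parts depend in part on that order. In the part with the highest GC content (55% to 94.7%, 31 microRNAs) the median log2 fold change was -0.50, with 23 of them below 0. In the part with the lowest (27.3% to 40.9%, 32 microRNAs) it was 0.17, with 11 below 0, and in the parts between, -0.01 in both. Both strands of miR-423 are in the highest part. The 5p strand, at 56.5%, had a log2 fold change of -1.39, and the 3p strand, with the higher GC content of 65.2%, had -0.05. Of the 5 microRNAs most like miR-423-5p, 3 had a sequence in it. Across 125 microRNAs, which are not independent replicates, GC content and log2 fold change had a Pearson correlation of -0.31. Across the 21 hairpins with a sequence for both strands, the difference in GC content between the strands and the difference of the log2 ratio had a correlation of 0.09. The contribution of base composition to the value of miR-423-5p was not tested.

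**Figure D4:**
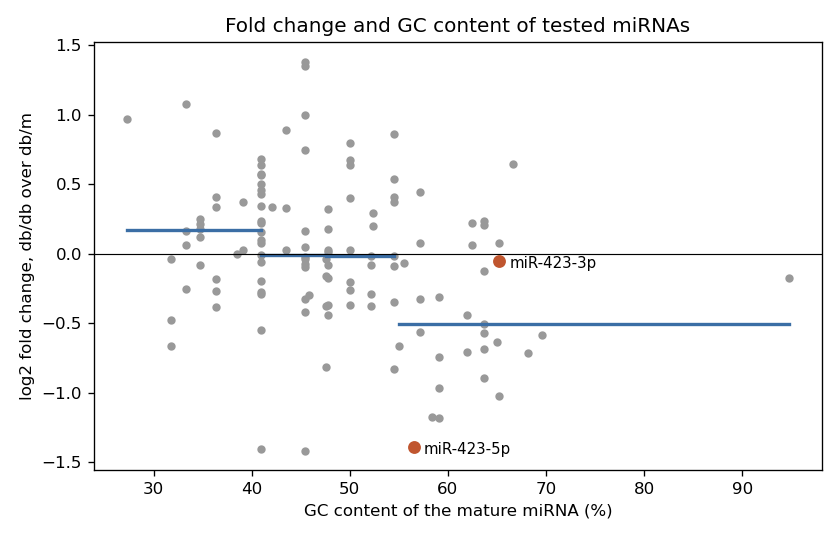
Log2 fold change of db/db over db/m (y axis) against the GC content of the mature microRNA in percent (x axis) for 125 tested microRNAs; horizontal lines are the medians of 4 parts of equal rank. The highest part has a median of -0.50, and the strands of miR-423, in colour, lie in it at -1.39 (5p) and -0.05 (3p).

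Neighbours on chromosome 11 did not move as 1 group. Of the 19 other listed microRNAs whose hairpins lie on that chromosome 11 were tested, 6 with log2 fold changes above 0 and 5 below (median 0.21, against -0.03 over all 144). None passed adjusted p of 0.05 by edgeR. The only one within 2 megabases was miR-22-3p, a microRNA that represses the DNA demethylase Tet2 in blood stem cells, 1.61 megabases away on the other strand. It had a log2 fold change of -1.42 (SE 0.49, edgeR adjusted p = 0.111), and passed in 4 alternatives. By edgeR these were the fits without db/db replicate 4 (-2.04, adjusted p = 0.0281), without db/m replicate 3 (-1.59, adjusted p = 0.0482) and with libraries of a title number summed (-1.30, adjusted p = 0.0224), and the fourth was DESeq2 (-1.43, adjusted p = 0.047).

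miR-423-5p is often measured in plasma beside other circulating microRNAs of type 2 diabetes. Of 15 names listed for such microRNAs, 12 were in the table and 11 were tested, 4 with log2 fold changes above 0 and 7 below (median -0.02, against -0.03 over all 144). Among the absent names, miR-126-3p and miR-28-3p are other names for miR-126a-3p and miR-28a-3p, which were in the table. By edgeR, miR-320-3p fell, with the limit given above, and miR-126a-3p rose. These were 1 call down and 1 up among the 11, beside 3 down and 4 up among all 144 tested. Of the 8 stem and progenitor markers all had log2 fold changes above 0 (median 0.37), as did 66 of all 144 tested microRNAs (median -0.03). This list was chosen with earlier results of these data known. It leaves out miR-22-3p, named above for its action in blood stem cells, which had a log2 fold change of -1.42 and did not pass. A direction shared by all 8 thus depends on which microRNAs were listed. Among the 8 markers miR-126a-3p, also an endothelial microRNA, and miR-196b-5p rose, 2 of 8 beside 4 that rose of all 144 tested. The call of miR-196b-5p was lost in 7 alternative settings. The summed level of the 8 markers, given above, went the other way from miR-423-5p, with ranges that overlapped slightly. The part of that sum in the value of miR-423-5p was not tested. No myeloid marker passed among the 3 tested (median -0.06), nor did miR-150-5p, the lymphoid marker (log2 fold change -0.63).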

How the data were processed

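Small RNA libraries (QIAseq miRNA kit, 50 ng of RNA each, 1 sequencing run, per the file headers) were made from sorted LSK cells. Per mature microRNA the authors deposited whole-number counts, log2 CPM values and a log2 fold change, a signed fold change (read as a score) and p-values of diabetic against control libraries, per the file headers. The deposited project sheet gives the RNA integrity number, a score. The tool edgeR 3.41.9 and the build mm10 appear, with no role given, per the submitters' processing notes. No source used here names the aligner or the treatment of molecular identifiers, so a count may be a read or a molecule. 0 columns per library were left without a sample.

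Counts were fitted with edgeR 4.0.16 in R 4.3.3 (filterByExpr at 10 counts and a total of 15, TMM, estimateDisp, robust glmQLFit, glmQLFTest with 6 residual degrees of freedom before moderation), which left 144 of 190 microRNAs. The SE of a log2 fold change is its size over the square root of F. Strand ratios were fitted with limma 3.58.1 on log2((5p + 0.5)/(3p + 0.5)) for hairpins with at least 40 counts per strand. Both fits were tried on simulated counts. There the shifts were larger than that of miR-423, and the strands of a hairpin were drawn independently. Such runs do not show how the fits perform at the size of its difference. Binomial intervals are exact (Clopper-Pearson, 95%, SciPy 1.17.1), and the hairpin was folded with RNAfold 2.7.2. Group membership came from the genotype labels, and columns were joined to samples by the number and suffix in their names. Replicate numbers follow accession order and pair nothing. As nothing says that libraries are separate mice, p-values reflect just the spread between these libraries.

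The strands, the lists and the tests were chosen with earlier results of these data known. Other microRNAs are named by rule: the 5 most like each strand, the 5 hairpins at each end of the ratio order, those within 2 megabases, and list members that passed. miR-126a and let-7d were chosen after their values were seen. Alternatives changed the scaling, filter, test, pseudocount and libraries used.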

Additional observations from a re-analysis of the deposited data

How the results depend on the processing

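The log2 fold change of miR-423-5p stayed between -1.55 and -1.26, that of the strand sum between -1.20 and -0.93, and the difference of the log2 strand ratio between -1.43 and -1.22, over all alternatives tried (16, 16 and 15), those without 1 library included. The value of miR-423-3p turned positive with library totals (0.056) and lay between -0.22 and 0.17 without 1 library, positive without db/m replicate 4 (0.02), db/db replicate 1 (0.03) or db/db replicate 4 (0.17). Scaling by library totals moved the median of the tested microRNAs from -0.03 to 0.08, and relative to that median miR-423-5p stood at -1.37 in both. The count of 7 microRNAs past the threshold became 11 without the 5 most abundant in the library size, 16 with DESeq2, 15 with libraries of a title number summed, 10 with the likelihood ratio test without a filter, 5 without a filter, 11 with the title suffix as a replicate block, and 3 to 18 without 1 library. The count of 1 hairpin became 0 with libraries of a title number summed or with the suffix block, and 0 to 1 without 1 library, being 0 in 6 of 8 such fits and 1 when db/db replicate 4 or db/m replicate 3 was left out. The cause was not tested. Suffixes 1 and 2 occur in both genotypes. Correlations of deviations between libraries that share a suffix ran from -0.35 to 0.31 over 6 pairs (median 0.03). Between libraries with different suffixes they ran from -0.31 to 0.19 over 10 pairs (median 0.02). These few pairs share libraries, so they cannot settle whether the suffix pairs them. Under that block db/m replicate 3, alone with its suffix, adds nothing to the genotype comparison. No sample stood apart by Dixon's test in the strand levels, sum or ratio. Depth limits the 3p strand most, with 20 counts in db/m replicate 2.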
